A study of Mus musculus with 12 samples.

Results

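The transcripts of 9 genes of transforming growth factor beta (TGF-beta) signaling were followed in mouse ear fibroblasts on hydrogels that differed in stiffness and viscoelasticity. The genes were chosen by name and by role, with earlier results of these data known. They comprise the ligands Tgfb1, Tgfb2 and Tgfb3, the receptors Tgfbr1, Tgfbr2 and Tgfbr3, the latent TGF-beta binding proteins Ltbp1 and Ltbp2, and the feedback inhibitor Smad7. They are 9 of the 33246 genes listed, and all 9 were among the 14542 genes tested. Of these 9 genes, 6 differed among the 4 gels at an adjusted p under 0.05 (Tgfb1, Tgfb2, Ltbp1, Ltbp2, Tgfbr1 and Smad7), where 44.7% of all tested genes did. Since the choice was not independent of the data, these values are given as a description.

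TGF-beta is secreted as a latent complex in which the propeptide encloses the ligand dimer and is joined to a latent TGF-beta binding protein in the extracellular matrix. Integrins that pull on this complex, or proteases, release the ligand, which then binds the type II receptor (Tgfbr2) and the type I receptor (Tgfbr1), often with help from the co-receptor betaglycan (Tgfbr3). The type I receptor phosphorylates Smad2 and Smad3, which enter the nucleus with Smad4 and induce matrix genes and, as negative feedback, Smad7. In fibroblasts the pathway is known for driving matrix deposition and the contractile myofibroblast state.

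Primary ear fibroblasts were cultured for 48 hours on alginate gels of 2 kPa or 20 kPa, each as an elastic or a viscoelastic gel, and poly(A) RNA of 3 samples per gel was sequenced (12 samples in 4 groups). The study asked whether viscoelasticity changes gene expression and whether this depends on stiffness. The methods name C57BL/6 mice aged 1 month, of both sexes, and Tau-EGFP reporter mice as sources of the cells, and the labels do not say which mice gave which sample. All groups shared RGD-coupled alginate and the time in culture. The elastic gels were crosslinked covalently and the viscoelastic gels, of the slow-relaxing kind, by calcium ions, so that the effect of viscoelasticity and that of the crosslinker cannot be told apart. The study calls the samples biological replicates, but the labels do not say that they came from separate animals or cultures, and p-values therefore measure the spread between these samples, which may be technical.

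Each sample held 36626221 to 43612804 counts, and the counts of the 9 genes ranged from 1080 (Tgfb2) to 61234 (Ltbp2). The fibroblast markers were present in all 12 samples, with Col1a1 at 5686 to 6793 CPM (counts scaled to a common library size, TMM-normalized). All 5 cartilage markers examined were also present in every sample, with Col2a1 at 2396 to 3471 CPM, Acan at 854 to 1611 and Sox9 at 367 to 535. Of the pericyte and smooth muscle markers, Cspg4 was present at 272 to 540 CPM while Myh11, Rgs5, Des and Kcnj8 reached at most 3.50, 1.00, 0.318 and 0.542. Myh11 was at 2.26 to 3.50 CPM on 20-kPa elastic gels and at 0.879 to 2.27 on the others. The defining markers of keratinocytes (Krt5, Krt14), endothelial cells (Pecam1), leukocytes (Ptprc), melanocytes (Tyr) and skeletal muscle (Myod1) stayed below 1 CPM, with Tyr at 0 in all samples. Other markers of these lists were higher, Trp63 at 10.9 to 20.1 CPM, Cd68 at 2.83 to 6.98, Krt10 at 2.35 to 3.81 and Tnnt3 at 1.85 to 4.15, while Tek, Pmel, Csf1r and Kdr reached 1.96, 1.26, 1.25 and 1.19. In bulk RNA of this kind, fewer cells of a type and less RNA per cell cannot be told apart.

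Per kb of exon, Ltbp2 and Ltbp1 were the most abundant of the 9 transcripts and Tgfb2, Tgfbr1, Tgfb1 and Smad7 the least. The exon length counts the exons of all annotated transcripts of a gene. Levels per kb thus depend on the annotation, and genes with close values are not ranked. On the scale of CPM per kb of exon, the mean over the 12 samples was 156 ± 17.1 (SD) for Ltbp2 and 57.4 ± 9.85 for Ltbp1. Tgfbr3, Tgfb3 and Tgfbr2 lay close together, at 40.4, 40.1 and 38.8 CPM per kb. Smad7 stood at 10.5, Tgfb1 at 8.88, Tgfbr1 at 8.67 and Tgfb2 at 7.24 CPM per kb. Tgfb3 was thus the main ligand transcript on every gel.

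**Figure D1:**
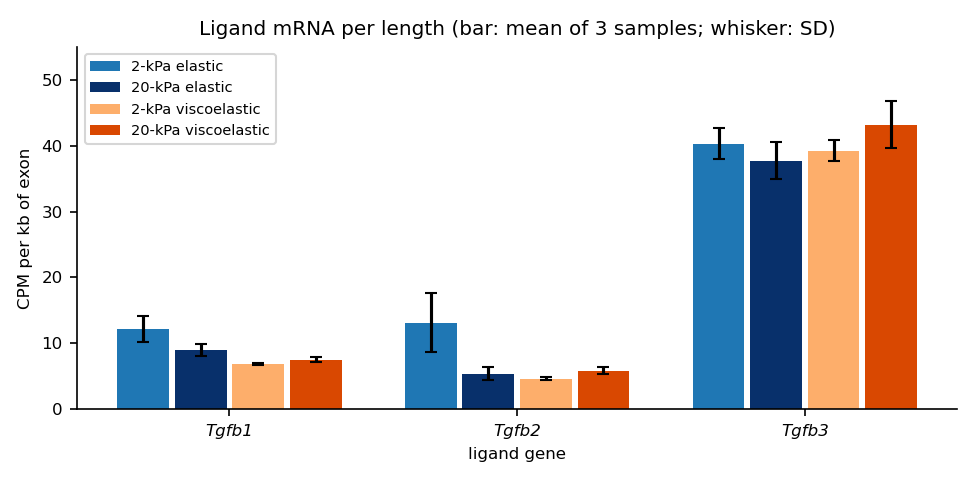
Levels of the 3 ligand transcripts, in TMM-normalized CPM per kb of exon, on each of the 4 gels. Bars are means of 3 samples and whiskers SDs. Tgfb3 is the tallest in every group, and Tgfb1 and Tgfb2 stand highest on 2-kPa elastic gels (12.2 and 13.1 CPM per kb).

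Of the summed ligand level per kb, Tgfb3 made up 61.8% ± 4.76 (SD, n = 3) for 2-kPa elastic gels and 72.4% ± 3.57 for 20-kPa elastic gels. It was 77.4% ± 0.522 on 2-kPa viscoelastic and 76.4% ± 1.09 on 20-kPa viscoelastic gels. Tgfb2 made up 19.6% ± 4.24 on 2-kPa elastic gels and between 9.12% and 10.4% on the other gels. The lowest Tgfb3 shares, 57.3% to 66.8%, were those of the 3 samples on 2-kPa elastic gels, below all 9 others.

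Tgfb1 (ENSMUSG00000002603.15) lies on the plus strand of chromosome 7 at 25687002 to 25705077, and Tgfb2 (ENSMUSG00000039239.14) on the minus strand of chromosome 1 at 186622792 to 186705989, in mm10. Both had their highest values on 2-kPa elastic gels, so the 250 bases before their start sites are shown, as RefSeq gives them for GRCm38.p6, 5′ to 3′ on the strand of the gene. The capitals mark the GC box (GGGCGG on either strand) in Tgfb1, at chr7:25686752-25687001, and the SMAD box (CAGAC on either strand) in Tgfb2, at chr1:186705990-186706239.
Tgfb1: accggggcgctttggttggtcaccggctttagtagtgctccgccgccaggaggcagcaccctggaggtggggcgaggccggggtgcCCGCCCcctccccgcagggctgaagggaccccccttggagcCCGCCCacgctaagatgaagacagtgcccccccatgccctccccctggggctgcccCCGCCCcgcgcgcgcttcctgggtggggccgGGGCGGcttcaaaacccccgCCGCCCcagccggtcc
Tgfb2: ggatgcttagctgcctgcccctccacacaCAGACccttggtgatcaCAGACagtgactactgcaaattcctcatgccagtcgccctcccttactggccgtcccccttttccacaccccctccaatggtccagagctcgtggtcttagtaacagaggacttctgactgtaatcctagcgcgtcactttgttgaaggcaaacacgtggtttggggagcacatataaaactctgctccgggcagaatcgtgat
The Tgfb1 window is 75.2% GC and held 5 GC boxes and no SMAD box. The Tgfb2 window is 53.6% GC and held 2 SMAD boxes and no GC box. Neither window held an AP-1 site (TGANTCA), a cyclic AMP response element (TGACGTCA), a TEAD site (CATTCC) or a CArG box, so the windows shared none of the 6 motifs searched. Of 32851 promoter windows of the same length, 32.7% held a GC box, 42.2% a SMAD box, 6.75% the AP-1 site, 1.55% the cyclic AMP response element, 12.6% the TEAD site and 1.47% the CArG box. RefSeq windows were searched for 6 of the 9 genes, 8 windows in all. In the others, SMAD boxes stood before both starts of Ltbp1, before Ltbp2, before Tgfbr2 and before 1 of the starts of Tgfbr1. GC boxes stood before Ltbp2 and before the other start of Tgfbr1, and a cyclic AMP response element before 1 of the starts of Ltbp1. These windows held no AP-1 site, TEAD site or CArG box. These matches are letters in a window and were not tested as binding sites.

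**Figure D2:**
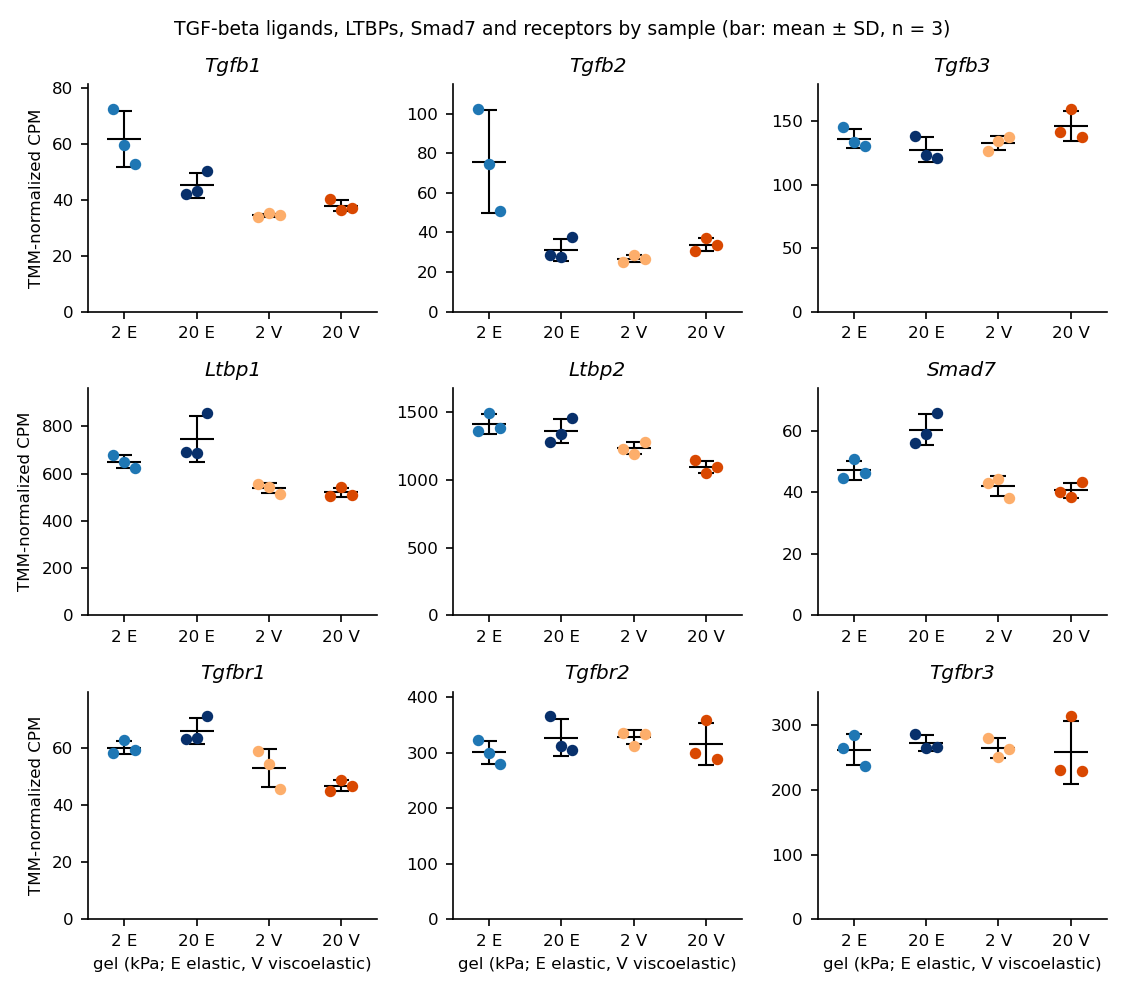
TMM-normalized CPM of the 9 genes in each of the 12 samples, by gel (E elastic, V viscoelastic, in kPa), with the mean and SD of the 3 samples as bars. Tgfb1 and Tgfb2 are highest on 2-kPa elastic gels, Ltbp1, Smad7 and Tgfbr1 are lower on both viscoelastic gels than on 20-kPa elastic gels, and Tgfb3, Tgfbr2 and Tgfbr3 differ little.

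Tgfb1, the ligand most studied in wound repair and fibrosis, was highest on soft elastic gels. Its level was 72.4, 59.7 and 52.8 CPM in the 3 samples on 2-kPa elastic gels and 33.9, 35.1 and 34.4 CPM on 2-kPa viscoelastic gels. On 20-kPa gels it was 42.0, 43.3 and 50.3 CPM on elastic and 40.1, 36.3 and 37.1 CPM on viscoelastic gels. All 3 samples on 2-kPa elastic gels stood above the other 9, and viscoelastic samples stood below the elastic ones at either stiffness. At 2 kPa Tgfb1 was lower on viscoelastic gels by a log2 fold change of -0.84 ± 0.097 (SE, adjusted p = 7.16e-05), a level 0.558 times that on elastic gels. At 20 kPa the log2 fold change was -0.26 ± 0.097 (adjusted p = 0.0543), just outside the threshold, and it passed with DESeq2 (adjusted p = 0.0358), with DESeq2 size factors (0.047), without the low-count filter (0.017), when the 6 samples were fitted alone (0.0255) and without 1 library, 2-kPa elastic replicate 1 (0.019), 2-kPa elastic replicate 3 (0.0296) or 20-kPa elastic replicate 1 (0.0333). These are 3 of 12 fits with 1 library left out, which gave -0.32 to -0.17 with adjusted p up to 0.238. Of the 9 other alternatives, 5 also left it outside the threshold. Going from 2 to 20 kPa, Tgfb1 fell by 0.45 on the log2 scale on elastic gels (adjusted p = 0.00641) and differed by 0.14 on viscoelastic gels (adjusted p = 0.483). The difference between these stiffness effects was 0.59 ± 0.14 (adjusted p = 0.0173).

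Tgfb2 had the widest range of the 9 genes. It was 102, 74.3 and 50.7 CPM on 2-kPa elastic gels and 25.2, 28.4 and 26.8 CPM on 2-kPa viscoelastic gels. On 20-kPa gels it was 28.6, 27.6 and 37.5 CPM on elastic and 30.8, 37.2 and 33.5 CPM on viscoelastic gels. The samples on 2-kPa elastic gels stood apart from all others and also spread the most, with a coefficient of variation of 34.2% against 5.82% on 2-kPa viscoelastic gels, while the groups at 20 kPa overlapped. At 2 kPa Tgfb2 was lower on viscoelastic gels by a log2 fold change of -1.50 ± 0.19 (adjusted p = 0.000115), a level 0.353 times that on elastic gels. With each library left out in turn, this log2 fold change ranged from -1.72 to -1.22 and stayed past the threshold. At 20 kPa the log2 fold change was 0.12 (95% interval -0.28 to 0.51, adjusted p = 0.661). On elastic gels Tgfb2 fell by 1.28 from 2 to 20 kPa (adjusted p = 0.000435). On viscoelastic gels its log2 fold change was positive, 0.34 (95% interval -0.059 to 0.73, adjusted p = 0.348). The difference between the stiffness effects was 1.62 ± 0.26 (adjusted p = 0.00162), the largest of the 9 genes.

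**Figure D3:**
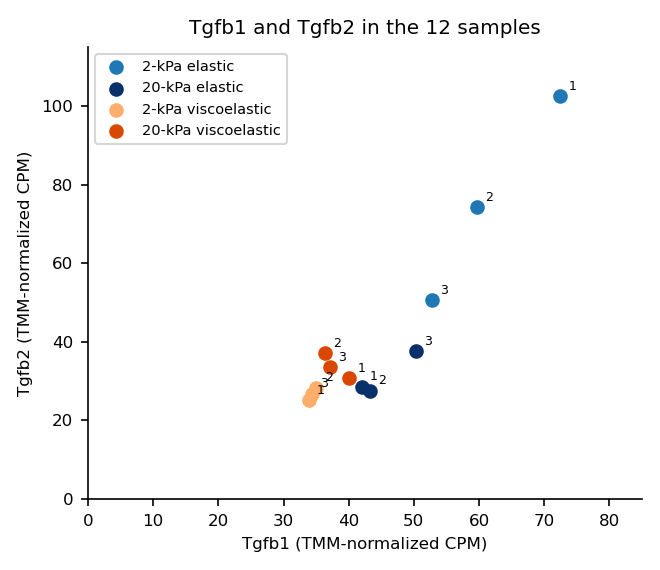
Tgfb2 against Tgfb1 in the 12 samples, both in TMM-normalized CPM, with the replicate number beside each point. The 3 samples on 2-kPa elastic gels lie at the upper right, with Tgfb1 at 52.8 to 72.4 and Tgfb2 at 50.7 to 102 CPM.

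Tgfb1 and Tgfb2 also varied together over the 12 samples, though not within every group. Pearson's r of their log2 CPM was 0.911 over the 12 samples and 0.855 after the mean of each group was removed. The 2-kPa elastic samples spread the most for both genes and weigh most in the latter value. In both 2-kPa groups the order of the 3 samples was the same for both genes. On 20-kPa viscoelastic gels it was the opposite (Tgfb1 40.1, 36.3 and 37.1 CPM, Tgfb2 30.8, 37.2 and 33.5 CPM). Tgfb3 followed neither: r was -0.067 with Tgfb1 and 0.23 with Tgfb2 over the same 12 samples. The samples share their libraries, and these values are given as a description. In the 2-kPa elastic samples the summed level of the cartilage markers was 4416 CPM in replicate 1, 5635 in replicate 2 and 5658 in replicate 3, lowest where Tgfb1 and Tgfb2 were highest. The other groups did not share this. On 2-kPa viscoelastic gels the sum (4278, 5421 and 4779 CPM) had the same order as both genes. On 20-kPa elastic gels (4020, 4095 and 4110 CPM) the sum and both genes were highest in replicate 3. On 20-kPa viscoelastic gels the sum (5491, 4141 and 4956 CPM) had the order of Tgfb1 and the opposite order to Tgfb2.

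Tgfb3, the main ligand transcript, was similar on all gels. Its values ran from 131 to 145 CPM on 2-kPa elastic, 121 to 139 on 20-kPa elastic, 127 to 137 on 2-kPa viscoelastic and 138 to 160 on 20-kPa viscoelastic gels. The elastic and viscoelastic groups overlapped at either stiffness, and the viscoelastic groups stood narrowly apart, with 20 kPa above 2 kPa. The log2 fold change between viscoelastic and elastic gels was -0.038 (95% interval -0.19 to 0.12, adjusted p = 0.747) at 2 kPa. At 20 kPa Tgfb3 was called higher on viscoelastic gels, by 0.20 ± 0.072 (adjusted p = 0.0493), although the samples overlapped, and the call was lost with DESeq2 (adjusted p = 0.0505), with DESeq2 size factors (0.0634), without the filter (0.0551), with a correction for length and GC content (0.109), in the 6 samples alone (0.067) and without any 1 of 7 libraries. Those 7 were replicates 2 and 3 of each elastic group, replicate 3 on 2-kPa viscoelastic gels and replicates 1 and 2 on 20-kPa viscoelastic gels, with adjusted p from 0.0572 to 0.22. In the test of any difference among the 4 gels, Tgfb3 did not pass (adjusted p = 0.147).

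Averaged over both stiffnesses, the 2 latent TGF-beta binding proteins were lower on viscoelastic gels. Ltbp1, which anchors latent TGF-beta in the matrix, was 678, 651 and 622 CPM on 2-kPa elastic gels and 554, 544 and 514 CPM on 2-kPa viscoelastic gels. On 20-kPa gels it was 689, 689 and 858 CPM on elastic and 507, 542 and 511 CPM on viscoelastic gels. Each of the 6 elastic samples was above each of the 6 viscoelastic samples. The log2 fold change was -0.28 ± 0.082 (adjusted p = 0.0281) at 2 kPa and -0.52 ± 0.082 (adjusted p = 0.000378) at 20 kPa. The difference between these effects was -0.24 (95% interval -0.49 to 0.0035, adjusted p = 0.229). The call at 2 kPa was lost with the correction for length and GC content (log2 fold change -0.14, adjusted p = 0.257) and without 2-kPa elastic replicate 1 (0.113), 2-kPa elastic replicate 2 (0.0741) or 2-kPa viscoelastic replicate 3 (0.098). Ltbp1 did not pass for stiffness on elastic gels (log2 fold change 0.20, adjusted p = 0.127), and did with the same correction (0.28, adjusted p = 0.0301).

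Ltbp2, a matrix protein of the same family that binds elastic fibers rather than latent TGF-beta, was the most abundant member. It was 1360, 1500 and 1385 CPM on 2-kPa elastic gels and 1230, 1193 and 1285 CPM on 2-kPa viscoelastic gels. On 20-kPa gels it was 1283, 1341 and 1462 CPM on elastic and 1147, 1052 and 1094 CPM on viscoelastic gels. The groups did not overlap at either stiffness. The log2 fold change was -0.20 ± 0.072 at 2 kPa (adjusted p = 0.0695, and 0.0233 with DESeq2) and -0.31 ± 0.072 at 20 kPa (adjusted p = 0.00457). With 1 library left out, the value at 2 kPa was -0.22 to -0.15 and never passed. Over the other alternatives it ranged from -0.20 to -0.020. The call at 20 kPa was lost with the replicate block and the correction for length and GC content together (-0.20, adjusted p = 0.0712). Over both stiffnesses the mean effect of viscoelasticity was -0.25 (adjusted p = 0.00137), and it was lost with the correction for length and GC content (-0.11, adjusted p = 0.107).

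Of the receptors, the type I receptor was lower on viscoelastic gels at 20 kPa, and no change was called for the type II receptor and betaglycan. Tgfbr1, whose kinase phosphorylates Smad2 and Smad3, was 63.4, 63.5 and 71.3 CPM on 20-kPa elastic gels and 45.2, 49.0 and 46.6 CPM on 20-kPa viscoelastic gels. On 2-kPa gels it was 58.4, 63.0 and 59.4 CPM on elastic and 59.0, 54.7 and 45.9 CPM on viscoelastic gels. The groups were apart at 20 kPa and overlapped at 2 kPa. The log2 fold change was -0.49 ± 0.081 (adjusted p = 0.000464) at 20 kPa, a level 0.711 times that on elastic gels. At 2 kPa it was -0.18 ± 0.081 (adjusted p = 0.127), which passed without 2-kPa viscoelastic replicate 1 (0.0318). The difference between the effects was not past the threshold (adjusted p = 0.113), and passed without 2-kPa viscoelastic replicate 3 (-0.41, adjusted p = 0.0191).

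Tgfbr2, the ligand-binding type II receptor, was at 280 to 322 CPM on 2-kPa elastic, 304 to 365 on 20-kPa elastic, 313 to 336 on 2-kPa viscoelastic and 289 to 359 on 20-kPa viscoelastic gels. Its mean viscoelastic effect was 0.037 with a 95% interval of -0.098 to 0.17. Tgfbr3, which presents ligand to the other receptors, was at 237 to 285, 265 to 286, 250 to 281 and 230 to 314 CPM on the same gels, and its mean viscoelastic effect was -0.033 with a 95% interval of -0.19 to 0.12. For both, all 4 groups overlapped. The 20-kPa viscoelastic replicate 2 held the highest Tgfbr3 value of the 12 samples, 314 CPM, and without it Tgfbr3 was lower on 20-kPa viscoelastic gels (log2 fold change -0.24, adjusted p = 0.0392), against -0.079 (adjusted p = 0.597) with it.

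Smad7, which blocks the activated type I receptor and marks it for degradation, was highest on stiff elastic gels. It was 56.0, 59.0 and 65.9 CPM on 20-kPa elastic gels and 40.2, 38.5 and 43.3 CPM on 20-kPa viscoelastic gels. On 2-kPa gels it was 44.7, 50.6 and 46.1 CPM on elastic and 43.1, 44.4 and 38.2 CPM on viscoelastic gels. The 3 samples on 20-kPa elastic gels were above all others, and at 2 kPa the groups were apart by a narrow margin. At 20 kPa Smad7 was lower on viscoelastic gels by a log2 fold change of -0.57 ± 0.077 (adjusted p = 0.000172), a level 0.674 times that on elastic gels. At 2 kPa the log2 fold change was -0.17 ± 0.078 (adjusted p = 0.137). From 2 to 20 kPa Smad7 rose by 0.35 ± 0.077 on elastic gels (adjusted p = 0.00715), against -0.044 ± 0.078 (adjusted p = 0.809) on viscoelastic gels. The difference between the stiffness effects was -0.40 ± 0.11 (adjusted p = 0.0378). It was lost without any 1 of 8 libraries, with adjusted p from 0.0638 to 0.103: replicates 1 and 3 on 2-kPa elastic, 2 and 3 on 20-kPa elastic, 1 and 2 on 2-kPa viscoelastic, and 1 and 2 on 20-kPa viscoelastic gels.

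**Figure D4:**
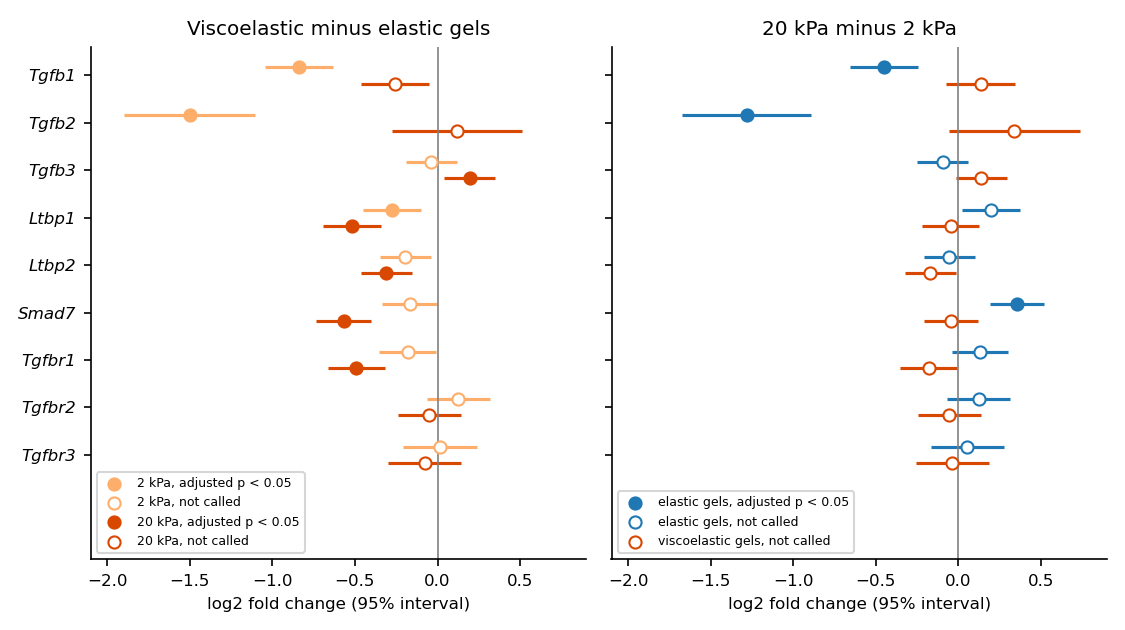
Log2 fold changes of the 9 genes with 95% intervals, viscoelastic minus elastic gels at each stiffness (left) and 20 minus 2 kPa on each kind of gel (right). Filled points passed an adjusted p under 0.05. Between viscoelastic and elastic gels the filled points are Tgfb1, Tgfb2 and Ltbp1 at 2 kPa and Ltbp1, Ltbp2, Tgfbr1, Smad7 and Tgfb3 at 20 kPa, and no point is filled for stiffness on viscoelastic gels.

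Set side by side, the comparison at 2 kPa called 3 of the 9 genes lower on viscoelastic gels (Tgfb1, Tgfb2 and Ltbp1) and none higher, where 19.9% of all tested genes were called, 11.1% lower and 8.77% higher. At 20 kPa 4 were lower (Ltbp1, Ltbp2, Tgfbr1 and Smad7) and 1 higher (Tgfb3), against 33.5% of all tested genes, 16.1% lower and 17.4% higher. Ltbp1 was thus the only one of the 9 called in both. The median log2 fold change of the 9 genes was -0.18 at 2 kPa and -0.26 at 20 kPa, while that of all tested genes was -7.47e-05 and 0.016. The samples of the compared groups did not overlap for 5 of the 9 genes at 2 kPa and for 5 at 20 kPa, where this held for 36.3% and 49.9% of all tested genes. Averaged over both stiffnesses, viscoelastic gels had lower levels of 6 of the 9 genes, Tgfb1, Tgfb2, Ltbp1, Ltbp2, Tgfbr1 and Smad7, where 40.0% of all tested genes were called, 20.4% lower and 19.6% higher.

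Stiffness moved 3 of the 9 genes on elastic gels, Tgfb1 and Tgfb2 lower and Smad7 higher at 20 kPa, where 14.0% of all tested genes were called, 7.14% lower and 6.81% higher. On viscoelastic gels none of the 9 genes passed in edgeR or in DESeq2, where 2.28% of all tested genes passed in edgeR (1.58% higher and 0.695% lower), and 2 of the 9 genes (Tgfbr1 and Ltbp2) had an unadjusted p under 0.05. The difference between the stiffness effects on the 2 kinds of gel passed for 3 of the 9 genes (Tgfb1, Tgfb2 and Smad7), against 7.56% of all tested genes, 4.45% positive and 3.12% negative. From 2 to 20 kPa the samples did not overlap for 5 of the 9 genes on elastic gels (Tgfb1, Tgfb2, Tgfbr1, Ltbp1 and Smad7) and for 4 on viscoelastic gels (Tgfb1, Tgfb2 and Tgfb3 higher, Ltbp2 lower), where this held for 35.6% and 22.3% of all tested genes. These comparisons share samples with one another and are not independent.

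The summed level of the cartilage markers overlapped between viscoelastic (4278 to 5421 CPM) and elastic gels (4416 to 5658 CPM) at 2 kPa, and was higher on viscoelastic (4141 to 5491 CPM) than on elastic gels (4020 to 4110 CPM) at 20 kPa. The summed level of the pericyte and smooth muscle markers, nearly all of it Cspg4, was lower on viscoelastic than on elastic gels, at 316 to 329 against 464 to 543 CPM at 2 kPa and at 274 to 330 against 368 to 503 CPM at 20 kPa. The part of either in the changes of the 9 genes was not tested.

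Ranking the 4 gels by the mean level of each gene gave 3 neighbouring pairs per gene, 27 in all, of which 4 differed beyond their spread at an adjusted p under 0.05. The share of such pairs over all tested genes was not computed. Tgfb1 ran from 2-kPa elastic through 20-kPa elastic and 20-kPa viscoelastic to 2-kPa viscoelastic gels, and only its first step passed. Tgfb2 ran from 2-kPa elastic through 20-kPa viscoelastic and 20-kPa elastic to 2-kPa viscoelastic gels, and only the first step passed (adjusted p = 0.000339). Tgfbr1, Ltbp1 and Smad7 had the same order, 20-kPa elastic, 2-kPa elastic, 2-kPa viscoelastic, 20-kPa viscoelastic. The passing step was the middle one for Ltbp1 and the first for Smad7, and Tgfbr1 had none. No step passed for Ltbp2, which ran from 2-kPa elastic through 20-kPa elastic and 2-kPa viscoelastic to 20-kPa viscoelastic gels, or for Tgfb3, Tgfbr2 and Tgfbr3.

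The 3 genes with the same order also varied together. Over the 12 samples, Pearson's r of log2 CPM was 0.911 between Tgfbr1 and Ltbp1, 0.902 between Ltbp1 and Smad7 and 0.875 between Tgfbr1 and Smad7, and within groups it was 0.65, 0.51 and 0.69. Tgfbr2 and Tgfbr3 had an r of 0.77 over the 12 samples and 0.82 within groups. Among all tested genes, the profile most like that of Tgfb1 was that of Mamdc2 (r = 0.982 over 12 samples), followed by Gtpbp1 (0.980) and the chemokine Cx3cl1 (0.979). Close to Tgfb2 were the secretory kinase Fam20c (0.978) and the coactivator Ppargc1a (0.968). The genes most like Smad7 were Larp1, Lbr and Ncapg, each at 0.971. These correlations over samples of 4 groups reflect the group means as well as sample-to-sample variation, and carry no p.

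Among 49 other genes of the pathway, of which 47 were tested, calls were made in both directions. At 2 kPa 7 were higher and 10 lower on viscoelastic gels (36.2% of the 47, where 19.9% of all tested genes were called), and at 20 kPa 4 were higher and 15 lower (40.4% against 33.5%). From 2 to 20 kPa on elastic gels 7 were higher and 8 lower (31.9% against 14.0%), and on viscoelastic gels 1 was lower (2.13% against 2.28%). The median log2 fold change of the 47 was -0.072 at 2 kPa and -0.15 at 20 kPa.

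Between viscoelastic and elastic gels, the genes that store and release TGF-beta were called only lower. Of 10 tested genes for latency and activation, 5 were lower on viscoelastic gels at 2 kPa (Ltbp3, Ltbp4, Furin, Itgav and Itgb3) and 4 at 20 kPa (Itgav, Itgb3, Lrrc32 and Thbs1), with none higher. Of all tested genes 19.9% were called at 2 kPa (11.1% lower and 8.77% higher) and 33.5% at 20 kPa (16.1% lower and 17.4% higher). The share of the 10 called at 20 kPa, 40.0%, was thus near that of all genes called in either direction. The call of Furin at 2 kPa was lost with the correction for length and GC content (log2 fold change -0.13, adjusted p = 0.154). From 2 to 20 kPa on elastic gels 1 of the 10 was higher (Thbs1) and 3 were lower (Ltbp3, Ltbp4 and Furin). These are 40.0% of the 10, where 14.0% of all tested genes were called, 6.81% higher and 7.14% lower. The call of Furin for stiffness was lost with the same correction (adjusted p = 0.215) and without any 1 of 5 libraries, replicates 1 and 2 on 2-kPa elastic and 1, 2 and 3 on 20-kPa elastic gels (0.0598 to 0.159). Itgb3 and Itgav encode the subunits of the integrin alpha-v beta-3, which binds the RGD site of latent TGF-beta. At 2 kPa the level of Itgb3 was 19.1 ± 3.33 CPM (SD, n = 3) for elastic and 8.42 ± 1.07 CPM for viscoelastic gels, and at 20 kPa these levels were 19.7 ± 5.07 and 9.16 ± 1.29 CPM. Its log2 fold change was -1.19 ± 0.17 (adjusted p = 0.000369) at 2 kPa and -1.10 ± 0.17 (adjusted p = 0.000316) at 20 kPa, so that the viscoelastic samples were lower to a similar extent at both. For Itgav the values were -0.45 (adjusted p = 0.00866) and -0.61 (adjusted p = 0.00072). Ltbp4, a latency protein of elastic fibers and chosen here after its values were seen, resembled Tgfb1 and Tgfb2, at 138 ± 1.94 CPM on 2-kPa elastic gels and 93.2 ± 4.76, 81.9 ± 5.88 and 84.1 ± 3.74 CPM on 20-kPa elastic, 2-kPa viscoelastic and 20-kPa viscoelastic gels.

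The Smad transducers moved little. None of Smad2, Smad3, Smad4 and the anchor protein Zfyve9 was called by edgeR in the 4 comparisons of 2 groups, where 1 had an unadjusted p under 0.05 at 20 kPa and 1 for stiffness on viscoelastic gels, and DESeq2 called 1 at 20 kPa. At 2 kPa and 20 kPa the log2 fold changes on viscoelastic gels were -0.072 and -0.040 for Smad2, -0.053 and -0.085 for Smad3, and -0.13 and -0.20 for Smad4. The mean viscoelastic effect on Smad4 passed at -0.17 (adjusted p = 0.0307), and was lost with total counts alone (0.0865) and without any 1 of 8 libraries (adjusted p 0.0502 to 0.0712). At 20 kPa Smad4 (adjusted p = 0.0637) passed in the 6 samples alone (0.0141), without the filter (0.0448), with DESeq2 (0.0434), with the correction for length and GC content (0.0343) and without 2-kPa viscoelastic replicate 1 (0.0171) or 2 (0.0158). At 2 kPa Smad4 (adjusted p = 0.281) passed without 2-kPa viscoelastic replicate 1 (0.0231).

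Of 13 inhibitors and feedback genes tested, 1 was higher and 3 lower on viscoelastic gels at 2 kPa, and 2 were higher and 3 lower at 20 kPa. These are 30.8% and 38.5% of the 13, against 19.9% and 33.5% of all tested genes, and the latter is near the background. Skil encodes SnoN, a repressor of the Smad complex that is also induced by it. It had log2 fold changes of -0.24 (adjusted p = 0.105) at 2 kPa and -0.61 (adjusted p = 0.000459) at 20 kPa, and passed at 2 kPa without 2-kPa viscoelastic replicate 1 (0.0119). Fmod, a collagen-binding proteoglycan that also binds TGF-beta, was higher on viscoelastic gels, at 1270 ± 148 against 940 ± 170 CPM at 2 kPa (log2 fold change 0.43, adjusted p = 0.03) and 1271 ± 89.0 against 777 ± 107 CPM at 20 kPa (0.71, adjusted p = 0.00104). The call at 2 kPa was lost without 2-kPa elastic replicate 1 (0.144), 2-kPa elastic replicate 2 (0.0522), 2-kPa viscoelastic replicate 2 (0.088) or 2-kPa viscoelastic replicate 3 (0.0891).

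**Figure D5:**
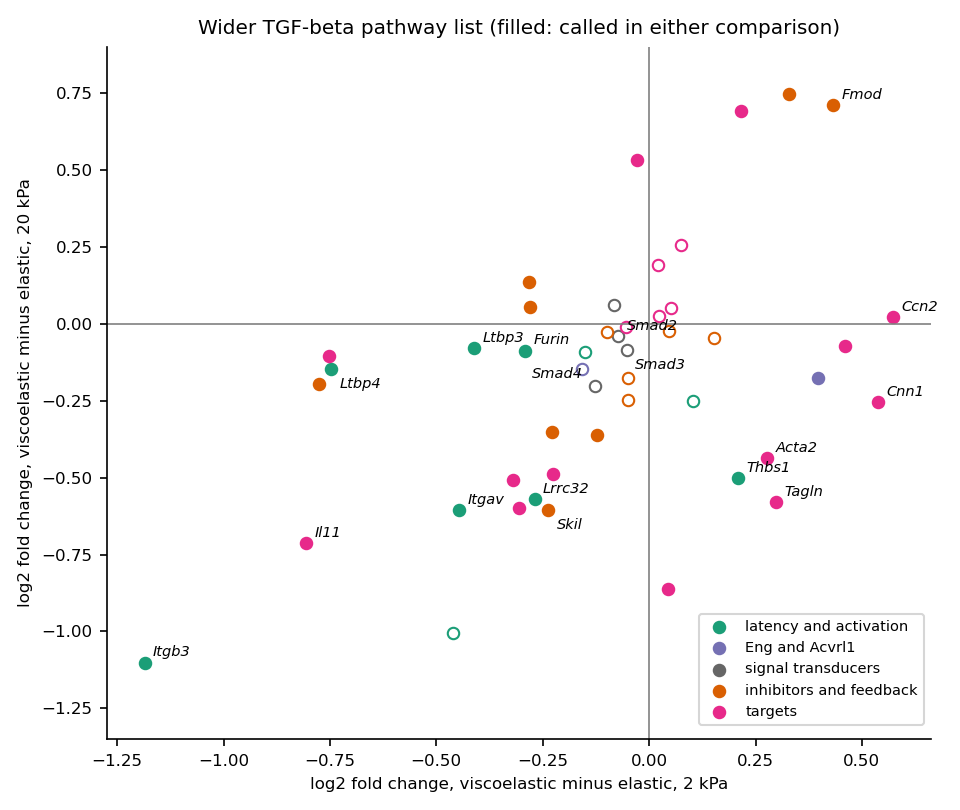
Log2 fold changes of the 47 tested other pathway genes, viscoelastic minus elastic gels, at 2 kPa (horizontal) and 20 kPa (vertical), colored by role. Filled points passed in either comparison. Itgb3 lies lowest on both axes (-1.19 and -1.10), Fmod is higher at both, and Acta2, Tagln and Cnn1 lie to the right of 0 and below it.

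The 18 genes listed as known targets of the pathway did not move as 1 group. At 2 kPa 5 were higher and 2 lower on viscoelastic gels, and at 20 kPa 2 were higher and 8 lower. These are 38.9% and 55.6% of the 18, against 19.9% and 33.5% of all tested genes. Ccn2, a matricellular protein, was higher on viscoelastic gels at 2 kPa (0.57, adjusted p = 0.004), with 0.022 (adjusted p = 0.906) at 20 kPa. The cytokine gene Il11 was lower on viscoelastic gels at 2 kPa (-0.81, adjusted p = 0.00574) and at 20 kPa (-0.71, adjusted p = 0.00638).

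The contractile genes Acta2, Tagln and Cnn1 were the 3 of the 47 that were called in opposite directions at the 2 stiffnesses, and were picked out for that. Acta2, the smooth muscle actin of myofibroblasts, stood at 528 ± 35.9 CPM with elastic and 640 ± 28.7 CPM with viscoelastic gels at 2 kPa, and at 782 ± 55.1 against 578 ± 53.8 CPM at 20 kPa. Its log2 fold change was 0.28 (adjusted p = 0.0264) at 2 kPa and -0.44 (adjusted p = 0.00113) at 20 kPa. For Tagln, an actin-binding protein, the values were 0.30 (adjusted p = 0.0471) and -0.58 (adjusted p = 0.000585), and for Cnn1, calponin, 0.54 (adjusted p = 0.000479) and -0.26 (adjusted p = 0.0217). At 2 kPa the calls of Acta2 (0.18, adjusted p = 0.167) and Tagln (0.22, adjusted p = 0.184) were lost with the correction for length and GC content, and that of Tagln also with the replicate block (0.0713). Single libraries also decided some of these calls. Acta2 at 2 kPa was lost without 2-kPa elastic replicate 2 or 3 or 2-kPa viscoelastic replicate 1 (0.0701 to 0.0982), Tagln at 2 kPa without any 1 of 7 libraries (0.0611 to 0.126), and Cnn1 at 20 kPa without 20-kPa elastic replicate 2 or 3 or 20-kPa viscoelastic replicate 1 or 2 (0.0627 to 0.0907).

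The remaining members lie at chr12:86056745-86079041 (Tgfb3), chr4:47353222-47414931 (Tgfbr1), chr9:116084293-116175360 (Tgfbr2), chr5:107106570-107289629 (Tgfbr3), chr17:75005568-75392512 (Ltbp1) and chr12:84783212-84876532 (Ltbp2) in mm10, and Smad7 lies on chromosome 18. Exons of Tgfb2, Tgfb3 and Ltbp2 overlap those of an annotated gene on the opposite strand and exons of Tgfbr3 those of 1 on the same strand. The strand setting of the counting is not stated, so reads of such pairs cannot be told apart. For Ltbp2 the partner, D030025P21Rik, held 85 to 155 counts per sample.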

How the data were processed

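The counts of the 9 genes were taken from 1 table of 12 samples, 3 on each of 4 gels. The authors trimmed reads with Trimmomatic, used STAR for alignment to mm10 and featureCounts for counting by gene, and deposited raw counts without normalization. The strand setting and the handling of multimapping reads are not given in the sources used here. The members and gene lists were chosen with earlier results of these data known.

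The model of edgeR 4.0.16 (R 4.3.3) started from all 33246 genes. Genes passed filterByExpr (minimum count 10, minimum total 15), libraries were scaled by TMM (factors 0.968 to 1.03), and a quasi-likelihood model with 1 coefficient per gel was fitted to all 12 samples. P-values were Benjamini-Hochberg adjusted over the 14542 tested genes and called under 0.05. Standard errors and 95% intervals were computed from the fit. CPM are TMM-normalized, and log2 CPM for correlations have a prior count of 2. Levels per kb use the summed exon length of GENCODE in mm10. Between pairs of replicates, the median squared difference of the 9 genes was 3.11 to 57.9 times that of counting error. The scripts were tested on simulated data.

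Alternatives were DESeq2 1.42.0, its size factors, total counts alone, no filter, a threshold of 0.01, the replicate number as a block, an offset for gene length and GC content (known for 96.0% of tested genes), the 6 samples of a comparison alone, and each library left out in turn. Named were the 9 members, Smad2, Smad3, Smad4, Skil, Ccn2, the other pathway genes called alike in both comparisons of viscoelastic with elastic gels (at most 6), and the 3 genes most like each of the 3 members with the lowest p for any difference. The other genes named were chosen after their values were seen. Results for a few genes are not reported here. The ATAC-seq and the other assays of the study were not analysed here.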

Additional observations from a re-analysis of the deposited data

Results flagged for a closer look

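Stiffness acted differently on the 2 kinds of gel for 3 of the 9 genes, by the test of the interaction in edgeR (the log2 stiffness effect with viscoelastic gels less that with elastic gels, adjusted over all tested genes). The difference was 0.59 for Tgfb1 (adjusted p = 0.0173), 1.62 for Tgfb2 (0.00162) and -0.40 for Smad7 (0.0378). For Tgfb1 and Tgfb2 the level fell with stiffness on elastic gels, and for Smad7 it rose there, while no stiffness effect was called for these genes on viscoelastic gels.

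The same test passed for 12 of the 47 other pathway genes (25.5%, where 7.56% of all tested genes passed), and the ones given here were named because they passed. It was positive for the latency protein Ltbp4 (0.60, adjusted p = 0.000848), the pseudoreceptor Bambi (0.42, 0.0281), the ubiquitin ligase Nedd4l (0.33, 0.0385), the TGF-beta binding protein Vasn (0.58, 0.0493), the matrix protein Tgfbi (0.65, 0.0239) and the cell cycle inhibitor Cdkn2b (0.56, 0.0101). It was negative for the activator Thbs1 (-0.71, 0.011), the type I receptor Acvrl1 (-0.57, 0.00483), Acta2 (-0.71, 0.00163), Tagln (-0.88, 0.00153) and Cnn1 (-0.79, 0.000637). Leaving out 1 library ended some of these calls. The call of Bambi was lost without any 1 of 8 libraries (0.055 to 0.0749), that of Nedd4l without any 1 of 9 (0.0523 to 0.107), that of Vasn without any 1 of 9 (0.0503 to 0.124) and that of Tgfbi without any 1 of 7 (0.0504 to 0.063). With other settings, Vasn was lost with DESeq2 size factors (0.0593), the replicate block (0.079) and the length and GC correction (0.0522), Nedd4l with the block (0.0508) and the correction (0.0648), and Bambi with the block (0.0532). No cause was tested.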

How the results depend on the processing

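The counts of called members changed little: leaving out each library in turn gave 2 to 4 at 2 kPa, 4 to 6 at 20 kPa, 3 for stiffness on elastic and 0 on viscoelastic gels, 6 for the mean effect, 2 to 4 for the interaction and 6 for any difference. At 20 kPa the replicate block with the length and GC correction left 3, and at a threshold of 0.01 the interaction left 1. Over all groups, the mean r of the deviations of same-numbered samples was -0.025 over 18 pairs, 2 of them over 0.1. Both of these were between the 2 viscoelastic groups, at 0.31 for replicate 2 and 0.18 for replicate 1, with 0.048 for replicate 3. Replicates 1 and 2 crossed had r of -0.23 and -0.24 there. Whether the numbers pair these 2 groups was not tested. With the replicate block alone the calls of Ltbp1 at 2 kPa (adjusted p = 0.0503), Tgfb3 at 20 kPa (0.0658), Tagln at 2 kPa (0.0713) and the interactions of Smad7 (0.0617), Bambi (0.0532), Nedd4l (0.0508) and Vasn (0.079) were lost, and 154 in place of 331 genes were called for stiffness on viscoelastic gels. Of the single-gene values of members, 610 of 648 with 1 library left out and 434 of 468 under the other alternatives kept direction and side of the threshold. Directions turned with the length and GC correction, without and with the block, for Tgfbr2 at 20 kPa (0.018 and 0.019), Tgfbr3 in the mean effect (0.011 and 0.0095, and 0.0045 with total counts alone), Ltbp1 for stiffness on viscoelastic gels (0.011 and 0.010), Ltbp2 for stiffness on elastic gels (0.077 and 0.076), Smad2 at 2 kPa (0.0011, without the block) and 20 kPa (0.050 and 0.049), Smad3 at 2 kPa (0.015 and 0.014) and Ccn2 at 20 kPa (-0.083 and -0.090), none of them called. With 1 library left out, the log2 values that turned direction ranged from -0.069 to 0.0094 for Tgfb3 at 2 kPa, for Tgfbr2 from -0.15 to 0.020 at 20 kPa, from -0.15 to 0.0063 for stiffness on viscoelastic gels and from -0.014 to 0.077 in the mean effect, for Tgfbr3 from -0.055 to 0.076 at 2 kPa, from -0.012 to 0.12 and from -0.20 to 0.041 for stiffness on elastic and viscoelastic gels and from -0.12 to 0.0053 in the mean effect, for Ltbp2 from -0.11 to 0.0030 for stiffness on elastic gels, at 2 kPa from -0.13 to 0.016 for Smad2 and from -0.10 to 0.015 for Smad3, and from -0.063 to 0.074 for Ccn2 at 20 kPa.

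Counts over all genes moved more. A threshold of 0.01 left 1352 at 2 kPa, 2733 at 20 kPa, 855 and 9 for stiffness on elastic and viscoelastic gels, 3730 for the mean effect, 400 for the interaction and 3918 for any difference. For stiffness on viscoelastic gels there were 653 without the filter, 760 with DESeq2, 167 with the length and GC correction, 77 with the block added to it and 38 in the 6 samples alone. Leaving out 1 library gave 1545 to 3085 at 2 kPa (over 1.5 times fewer without 2-kPa elastic replicate 1 or 2), 3177 to 5381 at 20 kPa (fewer to that extent without 20-kPa elastic replicate 3), 1063 to 2369 for stiffness on elastic gels (without any of these 3), 9 to 351 for stiffness on viscoelastic gels (without any 1 of 6 libraries), and 670 to 1182 for the interaction (without 2-kPa elastic replicate 1 or 20-kPa viscoelastic replicate 1). Total counts alone moved the split of higher and lower calls from 1275 and 1617 to 1675 and 1258 at 2 kPa, from 2527 and 2339 to 2937 and 1901 at 20 kPa and from 2846 and 2971 to 3538 and 2309 in the mean effect, and the length and GC correction moved it from 230 and 101 to 87 and 80 for stiffness on viscoelastic gels. The larger side also changed with that correction for the interaction (647 and 453 to 595 and 605) and at 2 kPa (to 1291 and 1222). The same correction changed it at 20 kPa (to 2118 and 2142) and in the mean effect (to 2624 and 2556). At 20 kPa it changed with DESeq2 size factors as well (to 2339 and 2490). For stiffness on elastic gels, 991 and 1038 became 1069 and 976 with DESeq2 size factors. There, total counts alone gave 1094 and 917, and the length and GC correction 1171 and 897. Of the other pathway genes, stiffness on viscoelastic gels called 2 with total counts alone, 3 without the filter and with DESeq2, and 0 with the block (alone or with the correction) or at 0.01, and 0 to 1 with 1 library left out. Their interaction called 5 at 0.01 and 7 to 13 with 1 library left out (7 without 2-kPa viscoelastic replicate 1). The cause of these changes was not tested.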
